A study of Mus musculus with 26 samples.

Results

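Glycolysis turns glucose into pyruvate in the cytosol, and lactate dehydrogenase turns pyruvate into lactate. The 10 genes described here are Slc2a1, which encodes the glucose transporter GLUT1, Hk2 (hexokinase), Aldoa (aldolase), Tpi1 (triosephosphate isomerase), Gapdh (glyceraldehyde-3-phosphate dehydrogenase), Pgk1 (phosphoglycerate kinase), Pgam1 (phosphoglycerate mutase), Eno1 (enolase), Pkm (pyruvate kinase) and Ldha (lactate dehydrogenase A). Cultured fibroblasts use this pathway heavily, and several of its genes are textbook targets of the hypoxia-inducible factors and of MYC. Several of them also have many processed pseudogenes, which are copies of the spliced mRNA inserted elsewhere in the genome, so that a short sequencing read from the mRNA can match more than 1 place. The 10 genes were listed by name and matched through GENCODE M21 to the 53801 gene identifiers of the RNA-Seq files, and all 10 were found.

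The series studied ATRX, a chromatin remodeler of the SWI/SNF family that also binds RNA, in mouse embryonic fibroblasts (MEFs) from a female mouse line. WT cells were compared with ATRXΔRBR cells, which are 1 clone in which CRISPR removed an RNA-binding region from the endogenous ATRX protein, and with ATRX KD cells, which express an shRNA against Atrx and were selected with puromycin. RNA-Seq of polyA RNA gave 2 libraries per group, and CUT&RUN, which sequences DNA released from around an antibody target, gave 16 peak lists for ATRX (WT and ATRXΔRBR), EZH2 and H3K27me3 (all 3 groups). All cells were grown in the same medium, DMEM with serum, and the study describes the libraries as biological replicates. The 2 WT libraries had 13320635 and 11856636 estimated counts, the 2 ATRXΔRBR libraries 9574175 and 13694802, and the 2 ATRX KD libraries 9051693 and 21723647. The names of the raw files give the same run to WT and ATRXΔRBR and have another form for ATRX KD, so that any difference between runs cannot be told apart from the knockdown. Since the ATRXΔRBR cells are 1 clone, traits of that clone cannot be told apart from the deletion, and its 2 libraries do not replicate the deletion.

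Atrx itself was measured first, as a check of the labels. In TPM, the share of transcripts scaled for length, WT had 233 and 141, ATRXΔRBR had 175 and 124, and ATRX KD had 331 and 512. Both ATRX KD libraries lay above all others. On normalized counts, the log2 fold change was −0.15 ± 0.21 (SE, n = 2 against 2) in ATRX KD against WT, with an adjusted p of 0.60 in edgeR's quasi-likelihood test, and −0.63 ± 0.22 in ATRXΔRBR, with an adjusted p of 0.14. No drop of Atrx RNA passed the test in the libraries labelled ATRX KD, and every direction below that names ATRX KD refers to those labels. The study assessed its knockdown cells by western blot and describes them as depleted of ATRX, with lower DAXX protein. It also reports fewer EZH2 peaks in them. Protein was not measured in these files. Of 12 fibroblast markers, some were abundant and others absent or nearly so: Vim was at 3903 to 6511 TPM and Col1a2 at 1772 to 2848 TPM in the 6 libraries, while Thy1 was listed at 0 in all of them, Lum was at most at 0.09 TPM, Postn at 1.5 TPM and Dcn at 4.22 TPM. Col3a1 was at 15.8 to 32.2 TPM in WT and ATRXΔRBR and at 0.36 and 0.75 TPM in ATRX KD.

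The RNA of Gapdh and Pgk1, which are often used as abundant reference genes, was hardly counted in these files, and their sequences show how much of each gene is shared with copies. The middle 60 bases of the coding sequence of both genes are shown beside the same stretch of a pseudogene (GENCODE M21 transcripts, strand of the gene, no base in capitals).
Gapdh (chr6:125161715-125166467, minus strand): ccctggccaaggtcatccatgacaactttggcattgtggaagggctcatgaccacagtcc
Gm7336 (chr7:51746647-51747878, plus strand): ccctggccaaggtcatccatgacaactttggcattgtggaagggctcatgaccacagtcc
Pgk1 (chrX:106187100-106203699, plus strand): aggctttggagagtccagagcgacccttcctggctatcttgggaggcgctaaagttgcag
Pgk1-rs7 (chr12:10898986-10900240, minus strand): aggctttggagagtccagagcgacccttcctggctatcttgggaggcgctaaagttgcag
Each gene and its pseudogene had 0 differences in these 60 bases. All 23 words of 38 bases in the Gapdh stretch occurred at 26 to 61 other places of the GRCm38 genome, with a median of 55. All 23 words of the Pgk1 stretch occurred at 2 other places. The length of 38 bases was chosen because the gene lengths exceeded the effective lengths of the authors' quantification by 37 bases in WT and ATRXΔRBR and by 36.55 bases in ATRX KD, a difference that words of this length have too. The study states paired reads of a greater length under its CUT&RUN methods, and whether this holds for the RNA-Seq is not given in the sources used here.

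Over the whole mRNA, the share of 38-base words found at no other place of the genome separated the 10 genes widely. It was 99.2% for both Slc2a1 and Hk2, 70.8% for Aldoa, 67.5% for Tpi1, 55.7% for Ldha and 46.1% for Pkm. It fell to 24.5% for Eno1, 14.2% for Gapdh, 6.38% for Pgk1 and 3.74% for Pgam1. Gapdh was apart from the rest in the number of its copies: 80.8% of its words had more than 10 other places, against 0.289% for Ldha and 0 for the other 8 genes. Among annotated genes, 31 shared at least 10% of the 50-base words of Gapdh exons, and 29 of these were pseudogenes.

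The annotated copies of Gapdh, Pgk1 and Pgam1 had few counts of their own, and those of Eno1 and Pkm had more. Pgk1-rs7 and Gm5537, the copies of Pgk1, and Pgam1-ps2, the copy of Pgam1, were listed at 0 counts in all 6 libraries. The 31 genes that share sequence with Gapdh had 26.0 to 75.0 counts together in a library, and the 1 of them with at least 10 counts in a library was Gm3222, with 1 to 14 counts. Eno1b, an intronless relative of Eno1 annotated as protein coding, had 111 to 313 counts and a log2 fold change of −0.64 ± 0.20 in ATRX KD (adjusted p of 0.047 in edgeR's quasi-likelihood test). Gm6560, a processed pseudogene of Pkm, had 177 to 399 counts, and Gm49759, an annotated transcript of unknown status that lies over Pkm on the same strand, had 774 to 2957 counts. How the authors treated reads with several places is not given in the sources used here, and the part of it in these levels was not tested.

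**Figure D1:**
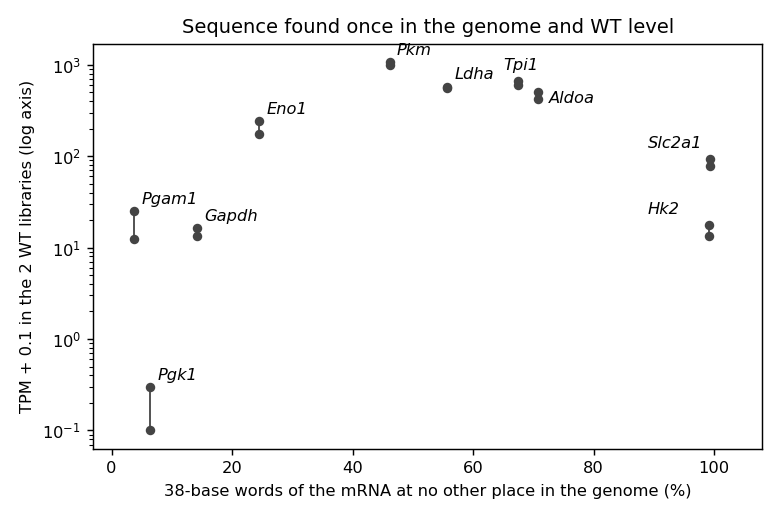
The share of 38-base words of each mRNA that occur at no other place in the genome (x axis, percent) against the level in the 2 WT libraries (y axis, TPM + 0.1, log axis), with a line joining the 2 libraries of a gene. Pgk1, Pgam1 and Gapdh are the 3 genes with the lowest shares and lie at low levels, while Hk2 has a share of 99.2% and a level close to that of Gapdh.

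The levels per length of the 10 genes in WT cells, in TPM, ran from the edge of detection to among the highest of all genes, as far as reads were assigned to them. Pkm was highest, at 999 and 1063 TPM, followed by Tpi1 at 598 and 670 TPM, Ldha at 578 and 556 TPM and Aldoa at 507 and 428 TPM. Eno1 was at 241 and 176 TPM and Slc2a1 at 92.7 and 78.0 TPM. Each of these 6 genes lay above the next in both WT libraries, without overlap, and the mean of Pkm was at or above that of 99.8% of all gene identifiers. This order depends on the effective lengths described below. In normalized counts (CPM), Slc2a1 at 119 and 91.9 lay above Eno1 at 87.3 and 57.8. Pgam1 at 12.3 and 25.1 TPM, Hk2 at 17.7 and 13.3 TPM and Gapdh at 13.2 and 16.2 TPM overlapped with their neighbours and cannot be ordered. Pgk1 was last, at 0.20 and 0 TPM.

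Pgk1 had hardly any assigned counts in every group. The WT libraries held 1 and 0 counts of it, those of ATRXΔRBR held 1 and 3 and those of ATRX KD held 1 and 2. No library had more than 3 counts, and the gene did not pass the filter of more than 10 counts in total. No fold change is given for it, and the tests below cover the other 9 genes. Gapdh was tested on 54 to 202 counts and Pgam1 on 142 to 401 counts per library, against 7885 to 22486 counts for Pkm. The 10 genes together took 0.171% to 0.279% of the counts of a library.

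**Figure D2:**
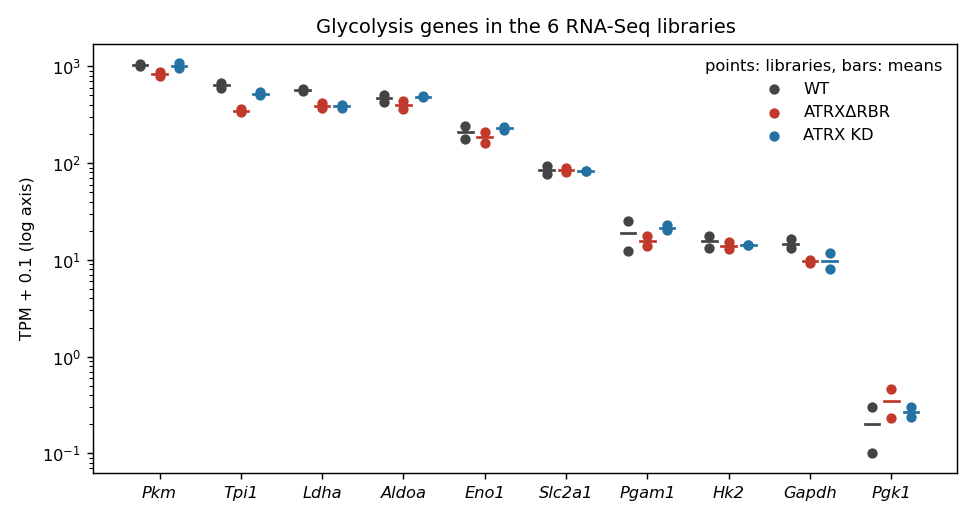
Level of each glycolysis gene (y axis, TPM + 0.1, log axis) in the 2 WT, 2 ATRXΔRBR and 2 ATRX KD libraries, with genes in the order of their WT mean, points for libraries and bars for the mean of 2. Tpi1 and Ldha have both ATRXΔRBR and both ATRX KD libraries below both WT libraries, while Slc2a1 lies between 78.0 and 92.7 TPM in all 6. On normalized counts, 4300 of 16287 genes tested lay below WT in ATRXΔRBR and 5995 of 16748 in ATRX KD.

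Deletion of the RNA-binding region was compared with WT first. Tpi1, which interconverts the products of aldolase, was the only 1 of the 9 tested glycolysis genes that passed the test, and it fell. Tpi1 (chr6:124810586-124814296, minus strand) had 598 and 670 TPM in WT and 334 and 362 TPM in ATRXΔRBR, so that the groups did not overlap. The log2 fold change was −0.90 ± 0.19 (SE, n = 2 against 2), or 1.87-fold lower, with an adjusted p of 0.031 in edgeR's quasi-likelihood test. Over all 16287 genes tested, 6.88% were called, 4.08% lower and 2.79% higher, so that 1 of 9 is close to the background. Without WT replicate 1 or without ATRXΔRBR replicate 1 the change of Tpi1 no longer passed, at adjusted p of 0.052 and 0.10. In bulk RNA of this kind, fewer cells that express a gene and less RNA per cell cannot be told apart. Tpi1 lies on chromosome 6, as do Gapdh and some other genes that fell in ATRXΔRBR, which are named below. The part of this position in the change was not tested.

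The genes next to Tpi1 in size of change did not pass. Ldha (chr7:46841475-46855627), which makes lactate, had 578 and 556 TPM in WT and 370 and 416 TPM in ATRXΔRBR, a log2 fold change of −0.59 ± 0.18 with an adjusted p of 0.11. Gapdh, the enzyme that makes NADH in the pathway, was counted 166 and 202 times in WT against 84 and 103 times in ATRXΔRBR, a log2 fold change of −0.85 ± 0.24 with an adjusted p of 0.085. For both genes, as for Tpi1, the ATRXΔRBR libraries lay below the WT libraries, which on normalized counts held for 4300 of the 16287 genes tested. When all 6 libraries shared 1 fit, Gapdh and Ldha also passed, with adjusted p of 0.045 and 0.038. The other 6 tested genes had log2 fold changes from −0.31 ± 0.18 for Pkm to 0.22 ± 0.19 for Hk2, and the latter turned to −0.22 when the effective lengths entered as an offset. The median of the 9 genes was −0.29, beside −0.02 over all genes tested.

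The ATRX KD libraries were compared with the same 2 WT libraries, so that the 2 comparisons share their controls. Here Gapdh, Ldha and Tpi1 passed the test, and all 3 fell. Ldha had 400 and 371 TPM in ATRX KD, a log2 fold change of −0.78 ± 0.12 (SE, n = 2 against 2), or 1.72-fold lower, with an adjusted p of 0.0038 in edgeR's quasi-likelihood test. Tpi1 had 538 and 504 TPM, a log2 fold change of −0.83 ± 0.12 on counts with an adjusted p of 0.0034. Gapdh had 54 and 157 counts in libraries of unequal size, which are normalized levels of 5.89 and 7.27 CPM against 12.7 and 16.9 CPM in WT. Its log2 fold change was −1.15 ± 0.22 with an adjusted p of 0.0084. In all 3 genes the ATRX KD libraries lay below the WT libraries, which on normalized counts held for 5995 of the 16748 genes tested. Leaving out 1 library gave log2 fold changes of −1.35 to −0.92 for Gapdh, −0.89 to −0.69 for Ldha and −0.94 to −0.72 for Tpi1.

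The background of this comparison was far larger than that of ATRXΔRBR. Of 16748 genes tested, 33.1% were called, 17.8% lower and 15.2% higher, so that 3 of 9 glycolysis genes is about the share of all genes. The median log2 fold change of the 9 genes was −0.24, beside −0.02 over all genes tested. Pkm, Aldoa, Eno1, Slc2a1, Pgam1 and Hk2 did not pass, with log2 fold changes from −0.25 ± 0.15 for Slc2a1 to 0.28 ± 0.16 for Hk2. For Slc2a1 the values were 83.3 and 83.3 TPM in ATRX KD, inside the range of the WT libraries. Leaving out either WT library raised the calls over all genes as well as those of the 9 genes. Those fits are therefore not read as a result on glycolysis genes. Leaving out 1 library moved the log2 fold change of Pgam1 between −0.36 and 0.53 and that of Slc2a1 between −0.43 and −0.06.

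The effective length that the authors' quantification gave Tpi1, Gapdh and Hk2 differed between groups, so that counts and TPM gave different sizes of change. The effective length of Tpi1 was 1407 and 1188 bases in WT, 1246 and 1368 bases in ATRXΔRBR and 1040 and 1031 bases in ATRX KD. With the lengths as an offset, the log2 fold change of Tpi1 in ATRX KD was −0.52, with an adjusted p of 0.018. The effective length of Hk2 was 3201 and 3843 bases in WT and 5406 and 5425 bases in ATRX KD, and with the lengths its log2 fold change went from 0.28 to −0.38, with an adjusted p of 0.22. For Gapdh the mean effective length was 1940 bases in WT and 1531 bases in ATRX KD, and with the lengths its log2 fold change was −0.80, with an adjusted p of 0.049. Eno1 had effective lengths of 644 to 666 bases, while its main mRNA has 2027 bases, so its TPM rests on short transcripts. Ldha had 1486 to 1492 bases in all 6 libraries.

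The 6 genes that passed in neither comparison differed in how far their libraries spread. Pkm (chr9:59656368-59679375), which makes pyruvate, had 999 and 1063 TPM in WT beside 792 and 876 TPM in ATRXΔRBR, and 956 and 1071 TPM in ATRX KD. Aldoa (chr7:126795234-126800751), which splits fructose 1,6-bisphosphate, had 362 and 436 TPM in ATRXΔRBR and 484 and 488 TPM in ATRX KD. Eno1 (chr4:150236721-150248879), which makes phosphoenolpyruvate, had 161 and 209 TPM in ATRXΔRBR and 222 and 234 TPM in ATRX KD. In TPM, every group overlapped with WT for Aldoa and Eno1, while for Pkm the ATRXΔRBR libraries lay below WT. Pgam1 (chr19:41911923-41918660), which moves the phosphate of phosphoglycerate, had 17.6 and 13.9 TPM in ATRXΔRBR and 20.2 and 22.8 TPM in ATRX KD, all inside the wide range of its WT libraries. Hk2 (chr6:82725025-82774454), which phosphorylates glucose, had 12.8 and 15.1 TPM in ATRXΔRBR and 14.1 and 14.3 TPM in ATRX KD. Slc2a1 (chr4:119108711-119137983), which brings glucose into the cell, had 80.3 and 89.1 TPM in ATRXΔRBR. The TPM of Hk2 and Slc2a1 thus overlapped with WT in both groups. On normalized counts, Pkm and Slc2a1 lay below WT in ATRX KD, and Hk2 lay above WT in both groups. Of all genes tested, 5995 of 16748 lay below and 5707 above WT in ATRX KD, and 3779 of 16287 above WT in ATRXΔRBR.

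The difference between the ATRX KD and ATRXΔRBR libraries was tested directly as well, and 34.8% of all genes passed. Of the 9 glycolysis genes 0 passed in edgeR's quasi-likelihood test, and 0 had an unadjusted p under 0.05. The largest difference was −0.31 ± 0.22 (log2, ATRX KD minus ATRXΔRBR) for Gapdh, with an adjusted p of 0.32, and that of Tpi1 was 0.06 ± 0.15 with an adjusted p of 0.79. A call of Gapdh and Ldha in 1 comparison and not in the other is therefore not shown to be a difference between the 2 kinds of cells.

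**Figure D3:**
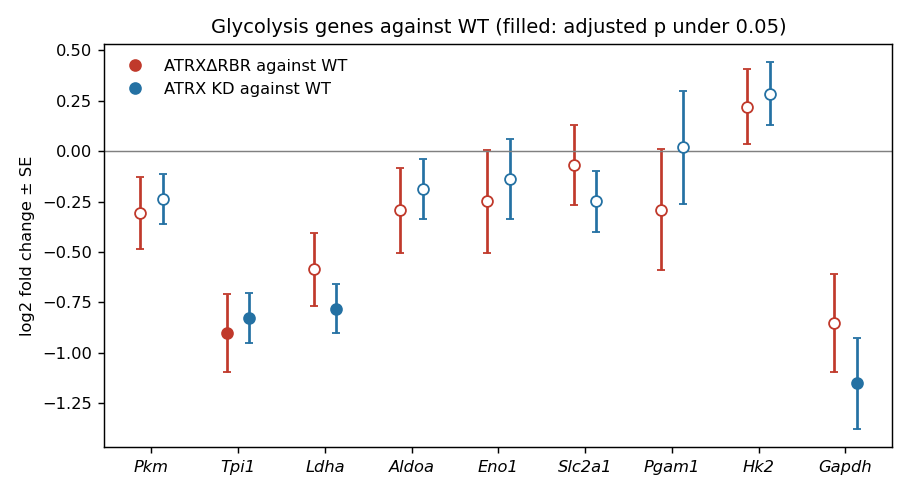
Log2 fold change against WT with its SE (y axis) for the 9 tested glycolysis genes in ATRXΔRBR and ATRX KD cells, where filled points passed the test at an adjusted p under 0.05. Tpi1, Ldha and Gapdh lie lowest in both comparisons, from −0.59 to −1.15, and Hk2 is the 1 gene above 0 in both, a sign that turns when effective lengths enter.

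The other genes of glucose breakdown, which were listed by pathway, show what surrounded the 10 members. Of 31 other genes of glycolysis, glucose uptake and lactate transport, 24 were tested. In ATRXΔRBR, 2 rose and 4 fell, which is 25% of those tested beside 6.88% of all genes. Ldhb, the lactate dehydrogenase subunit that prevails in oxidative tissues, went from 150 and 150 TPM in WT to 22 and 26.4 TPM, a log2 fold change of −2.61 ± 0.22 with an adjusted p of 0.00073 in edgeR's quasi-likelihood test. Eno3, the muscle enolase, rose from 13.0 and 12.7 TPM to 36.3 and 41.5 TPM, and Eno2, the neuronal enolase, fell from 23.7 and 30.7 TPM to 13.9 and 15.5 TPM. Pfkm, a phosphofructokinase, rose by 0.80 ± 0.17 on the log2 scale with an adjusted p of 0.029. Tigar, a fructose-2,6-bisphosphatase, and Pfkfb3, which makes fructose-2,6-bisphosphate, fell, with log2 fold changes of −1.24 ± 0.23 and −1.16 ± 0.27. Among the 4 that fell, Ldhb (chr6:142490249-142507957), Eno2 (chr6:124760053-124769673) and Tigar (chr6:127085116-127109557) lie on chromosome 6, as do Tpi1 and Gapdh. These calls are therefore not shown to be independent. Hk2 and Bpgm, also on chromosome 6, did not pass, with log2 fold changes of 0.22 and 0.07. The part of position in the share of 25% was not tested. The calls of Pfkm, Tigar and Pfkfb3 were each lost without at least 1 of the 4 libraries, and those of Tigar and Pfkfb3 also with effective lengths as an offset.

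In ATRX KD, 24 of the 31 genes were tested as well, with Gapdhs in place of Slc2a3. Of these, 5 rose and 4 fell, or 37.5%, a share near the 33.1% of all genes called in this comparison. Ldhb fell here too, to 61.4 and 54.1 TPM, with a log2 fold change of −1.27 ± 0.15, and was higher than in ATRXΔRBR by 1.32 ± 0.19 (adjusted p of 0.0011 in edgeR's test of the 2 groups). Eno3 rose to 41.6 and 43.0 TPM, and its difference from ATRXΔRBR was 0.01 ± 0.15. Pfkp, the platelet phosphofructokinase, rose from 37.8 and 51.1 TPM to 152 and 141 TPM, with a log2 fold change of 1.14 ± 0.12 on counts. Hk1 rose from 119 and 132 TPM to 236 and 247 TPM, with a log2 fold change of 0.60 ± 0.11. Pfkfb2 rose by 1.12 ± 0.22 on the log2 scale and Eno2 fell by 0.56 on the log2 scale. The calls of Hk1 and Eno2 were lost without either ATRX KD library, and that of Eno2 also with effective lengths as an offset. The median of the 24 genes tested in each comparison was −0.04 in ATRXΔRBR and −0.19 in ATRX KD.

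The pentose phosphate pathway, which branches from glycolysis at glucose 6-phosphate and yields NADPH, had 8 tested genes. None of the 8 passed in ATRXΔRBR by edgeR or by DESeq2, and 0 had an unadjusted p under 0.05 in edgeR. Tkt (transketolase) was at 476 and 396 TPM in WT and 414 and 481 TPM in ATRXΔRBR, and Pgd (6-phosphogluconate dehydrogenase) at 390 and 383 against 394 and 416 TPM. In ATRX KD, 4 fell and 1 rose, or 62.5% of the 8 beside 33.1% of all genes. G6pdx, the first enzyme of the cytosolic pathway, fell with a log2 fold change of −0.75 ± 0.13, Pgls with −1.15 ± 0.23, Pgd with −0.58 ± 0.12 and Taldo1 with −0.44 ± 0.14. H6pd, the enzyme of the endoplasmic reticulum, rose from 26.7 and 34.0 TPM to 119 and 122 TPM, a log2 fold change of 1.73 ± 0.12 with an adjusted p of 0.00023 in edgeR's quasi-likelihood test. The calls of G6pdx, Pgd and Taldo1 were lost without at least 1 ATRX KD library, and that of Taldo1 also under DESeq2 and with all 6 libraries in 1 fit.

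All 30 genes of pyruvate entry into mitochondria and of the TCA cycle were tested. In ATRXΔRBR, 2 fell and 0 rose, and this 6.67% is about the background of 6.88%. Pdk3, a kinase that inhibits pyruvate dehydrogenase, went from 60.3 and 65.4 TPM to 38.01 and 36.6 TPM, with a log2 fold change of −0.84 ± 0.17, a call that was lost without 3 of the 4 libraries in turn. Pdk4, another of these kinases, fell from 22 counts in each WT library to 1 and 0 counts in ATRXΔRBR, a ratio of 40.9 with a 95% counting interval from 6.97 to 1651. In ATRX KD, 5 rose and 5 fell, and this 33.3% is about the background of 33.1%. Pdk4 was at 0 counts in both ATRX KD libraries, at least 18.02-fold lower against a floor of 3 counts over the group. Ogdh, a subunit of the 2-oxoglutarate dehydrogenase complex, rose by 1.18 ± 0.11 on the log2 scale, and Pdk2 rose by 1.42 ± 0.25. Idh3g, Pdha1 and Pdp2 fell, with log2 fold changes of −0.78 ± 0.13, −0.54 ± 0.12 and −0.51 ± 0.13, and each of these 3 calls was lost without at least 1 ATRX KD library. The median of the 30 genes was −0.13 in ATRXΔRBR and 0.01 in ATRX KD.

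Targets of the hypoxia-inducible factors outside glycolysis were a list of 18 genes, of which Pdk1 is also in the list of pyruvate entry. In ATRXΔRBR, 11.1% of them were called beside 6.88% of all genes. Ndrg1, a stress-response gene, rose by 0.91 ± 0.17 on the log2 scale and Adm (adrenomedullin) fell, with a log2 fold change of −1.28 ± 0.29 that no longer passed without ATRXΔRBR replicate 2. In ATRX KD, 2 rose and 9 fell, or 61.1% beside 33.1% of all genes, of which 17.8% fell. Ndrg1 fell here, with a log2 fold change of −1.36 ± 0.13. Ddit4, an inhibitor of mTOR signalling, went from 188 and 191 TPM in WT to 74.1 and 75.3 TPM in ATRX KD, with a log2 fold change of −1.56 ± 0.12. Vegfa, the endothelial growth factor, fell with −1.07 ± 0.12, Bnip3, a mitophagy receptor, with −1.56 ± 0.23, and Egln3, a prolyl hydroxylase, from 6.10 and 6.39 TPM to 1.31 and 2.13 TPM. Adm rose from 11.8 and 14.2 TPM to 120 and 139 TPM, and its log2 fold change of 3.09 ± 0.17 had an adjusted p of 9.9e-05 in edgeR's quasi-likelihood test. The median of the 18 genes was −0.50 in ATRX KD and −0.15 in ATRXΔRBR, where all genes tested had medians of −0.02 and −0.02.

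Among 10 regulators of glycolysis genes, 9 were tested, and the shares called, 11.1% in ATRXΔRBR and 33.3% in ATRX KD, stood beside 6.88% and 33.1% of all genes. Hif1a, named after its values were seen, had 127 and 162 TPM in WT beside 174 and 118 TPM in ATRXΔRBR, and 234 and 206 TPM in ATRX KD. It did not pass in either comparison. Epas1, which encodes HIF-2α, fell from 51 and 40 counts to 1 and 2 counts in ATRXΔRBR, a ratio of 28.2 with a 95% counting interval from 9.35 to 139, and was the only regulator called there (adjusted p of 0.0022 in edgeR's test). Trp53 and Myc, the 2 with the highest WT levels, had log2 fold changes of 0.13 and −0.08 in ATRXΔRBR and did not pass. In ATRX KD, Myc fell from 172 and 141 TPM to 99.0 and 99.5 TPM, with a log2 fold change of −0.92 ± 0.16, Vhl fell by 0.47 on the log2 scale, and Arnt, the partner of the hypoxia-inducible factors, rose by 0.59 ± 0.15. The calls of Vhl and Arnt were lost without either ATRX KD library, and that of Vhl also under DESeq2. The median of the 9 genes was −0.10 in ATRXΔRBR and −0.02 in ATRX KD.

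Other genes moved with these groups as well. The 12 fibroblast markers summed to 13690 and 11370 TPM in WT, 21230 and 23300 TPM in ATRXΔRBR and 18610 and 18850 TPM in ATRX KD. The sum is not a general gain of the markers, since S100a4 alone was at 4166 and 4164 TPM in WT, 9697 and 11816 TPM in ATRXΔRBR and 7618 and 7297 TPM in ATRX KD. Of the 10 that were tested, 1 rose and 1 fell in ATRXΔRBR (20% beside 6.88% of all genes) and 3 rose and 3 fell in ATRX KD (60% beside 33.1%), and S100a4 rose in both. Col3a1 went from 937 and 733 counts in WT to 4 and 12 counts in ATRX KD. The pluripotency and neural progenitor gene Sox2 fell from 43.9 and 37.1 TPM in WT to 18.7 and 17.5 TPM in ATRXΔRBR and to 1.10 and 0.55 TPM in ATRX KD, while Pou5f1 was listed at 0 throughout. Markers of epithelium, endothelium and muscle each summed to at most 5.38 TPM in a library, those of neural cells to at most 5.69 TPM and those of blood to at most 13.8 TPM, mostly from Cd68, and Ptprc was at or under 0.15 TPM. Some of these rare markers passed edgeR's test all the same. Pecam1 (endothelium) passed in both comparisons and was counted 20 and 21 times in WT, 51 and 53 times in ATRXΔRBR and 0 times in both ATRX KD libraries. Des (muscle) was higher in ATRXΔRBR, with 16 and 31 counts against 4 and 3 in WT. Cdh1 (epithelium) was lower in ATRX KD, with 1 and 2 counts against 11 and 10 in WT. The part of these changes in the results on glycolysis genes was not tested.

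**Figure D4:**
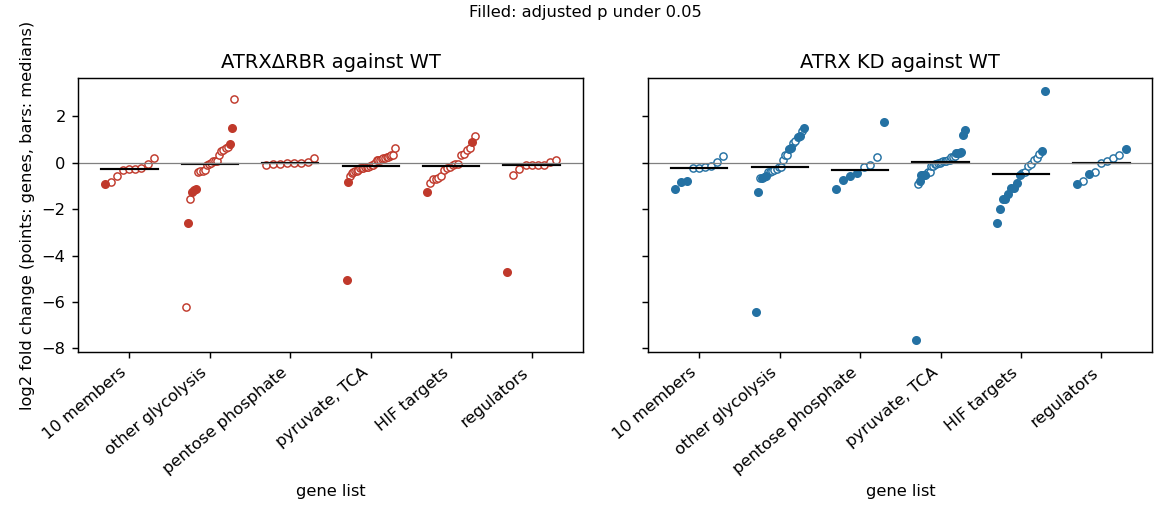
Log2 fold change against WT (y axis) of every tested gene of 6 lists (x axis) in ATRXΔRBR (left) and ATRX KD (right), with filled points for genes that passed at an adjusted p under 0.05 and bars for medians. Among other glycolysis genes the filled points lie on both sides of 0, with 2 higher and 4 lower in ATRXΔRBR, and the lowest points, such as Pdk4, are genes with 0 to 3 counts in a group, whose fitted size depends on the prior count.

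CUT&RUN peaks were then placed at the same 10 genes. EZH2 is the methyltransferase of Polycomb repressive complex 2, and H3K27me3 is the mark that it lays down, which is known from silent genes. Peaks had been called in each library by the authors at a broad cutoff of q 0.1, on mm10 coordinates, and a gene was counted when at least 1 bp of a peak lay within 2 kb of its outermost annotated start. H3K27me3 peaks were at 0 of the 10 genes in all 6 lists, both at the start and over the gene body. In protein-coding genes as a whole, 15.6% and 16.4% had an H3K27me3 peak at the start in the WT lists, but only 1.49% and 1.86% of genes at 50 TPM or more did.

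EZH2 peaks, in contrast, were at the start of most glycolysis genes. They were found at 9 and 8 of 10 genes in the WT lists, at 8 and 7 genes in those of ATRXΔRBR and at 2 and 4 genes in those of ATRX KD. Of all protein-coding genes, 50.6% and 46.8% had one in the WT lists, 49.2% and 35.04% in those of ATRXΔRBR and 19.4% and 24.8% in those of ATRX KD. The shares of protein-coding genes at 50 TPM or more, a level that Pgam1, Hk2, Gapdh and Pgk1 did not reach, were higher: the WT lists had 86.6% and 79.7%, the ATRXΔRBR lists 89.8% and 58.4% and the ATRX KD lists 31.5% and 42.5%. The ATRX KD lists were short throughout, with 5376 and 7093 EZH2 peaks against 22316 and 18351 in WT, and the files do not give the read depth behind each list, for which the study states only a range over its samples, so a gene without a peak is not a gene shown to have lost EZH2. Hk2 was the 1 gene with an EZH2 peak at the start in all 6 lists. Pgk1, with at most 3 counts of RNA, had one in 5 of 6 lists. Tpi1 had one only in WT replicate 1, over the start itself (chr6:124814188-124814377). Ldha had none within 2 kb, but a peak 4065 to 4684 bases downstream in WT replicate 1 and 4181 to 4671 bases downstream in ATRXΔRBR replicate 1, over the first of the 2 starts that RefSeq gives.

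ATRX peaks were fewer and agreed less between replicates. They were at the start of 3 and 3 of the 10 genes in the WT lists and of 1 and 2 in the ATRXΔRBR lists, beside 12.05% and 5.70% of protein-coding genes in WT and 13.6% and 4.91% in ATRXΔRBR. Of protein-coding genes at 50 TPM or more, 25.8% and 12.8% had one in WT and 30.7% and 10.2% in ATRXΔRBR. Pkm was the 1 gene with a peak at the start in both WT lists (chr9:59655985-59656410 and chr9:59656056-59656366, mm10), and it had none in either ATRXΔRBR list. In the second WT list the peak ends 2 bases before the start of the gene. At a q of 0.01 or less 0 genes had an ATRX peak at the start in both WT lists, while the intronic peaks of Eno1 and Hk2 described below passed this q in both. Gapdh had ATRX peaks at the start in WT replicate 1 and ATRXΔRBR replicate 2, and Pgk1 in ATRXΔRBR replicate 1 only. With 2 lists a group no test was made.

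**Figure D5:**
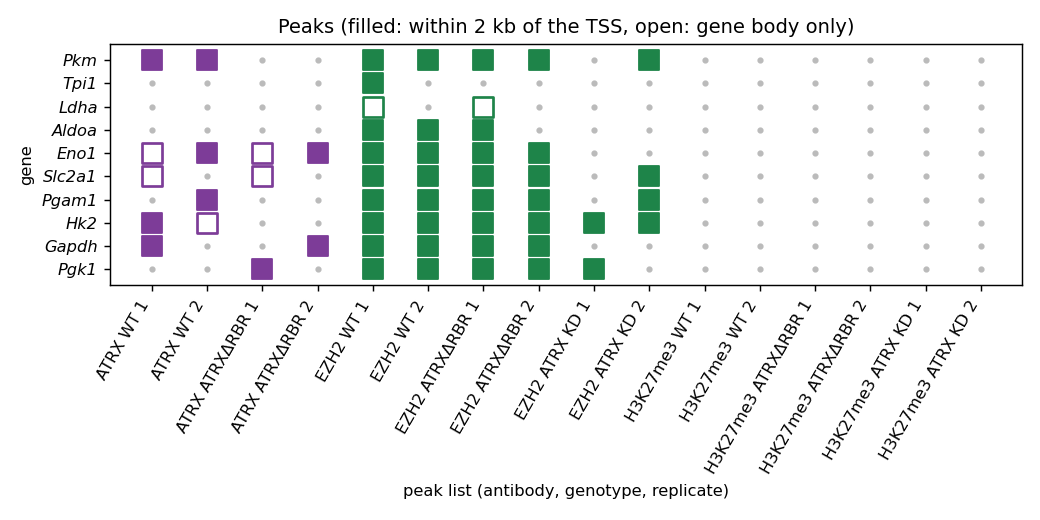
Presence of a peak at each glycolysis gene (y axis, in the order of WT level) in each of the 16 peak lists (x axis), where a filled square marks a peak within 2 kb of the start, an open square a peak over the gene body only and a grey dot neither. EZH2 peaks fill most of the WT and ATRXΔRBR columns, with 7 to 9 genes a list, and the 6 H3K27me3 columns hold none.

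Of the member regions, the start of Pkm held the most lists of both proteins: there, chr9:59656207-59656366 lay in the ATRX peaks of both WT lists and in 5 of the 6 EZH2 lists, all but ATRX KD replicate 1. Away from start sites, ATRX and EZH2 peaks met inside introns of Eno1 and Slc2a1. In Eno1, 3343 to 3492 bases after the start, the ATRX peaks of both WT lists and of ATRXΔRBR replicate 1 overlapped with the EZH2 peaks of the same 3 cells and replicates. In Slc2a1, 12711 to 12871 bases after the start, the ATRX and EZH2 peaks of WT replicate 1 and ATRXΔRBR replicate 1 overlapped with the EZH2 peak of ATRX KD replicate 2. The shared stretches are shown because they are the intronic regions with the most lists of both proteins, read from GRCm38 on the strand of the genes, with the motif TGACTCA of the AP-1 factors, or its reverse complement TGAGTCA, in capitals.
Eno1 intron (chr4:150240064-150240213, plus strand): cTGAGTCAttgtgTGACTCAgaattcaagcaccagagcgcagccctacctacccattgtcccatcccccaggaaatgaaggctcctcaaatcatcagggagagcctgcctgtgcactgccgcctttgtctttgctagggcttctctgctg
Slc2a1 intron (chr4:119121422-119121582, plus strand): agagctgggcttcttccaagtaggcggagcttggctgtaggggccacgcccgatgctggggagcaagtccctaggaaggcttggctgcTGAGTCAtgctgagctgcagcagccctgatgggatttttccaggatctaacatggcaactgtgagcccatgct
The Eno1 stretch of 150 bases had 2 matches and the Slc2a1 stretch of 161 bases had 1. Over the peaks of WT replicate 1 on the autosomes and sex chromosomes, 9093 of 9141 for ATRX and 22301 of 22316 for EZH2, the central 150 bases held a match in 22.9% and 13.5%, and the central 161 bases in 23.9% and 14.2%. A match describes letters in a window and not binding of a factor. Hk2 also had an intronic region with ATRX peaks in both WT lists (chr6:82756063-82756540 and chr6:82755965-82756387), and no EZH2 peak there.

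Promoters of the members were compared for the short motifs of factors known to drive glycolysis genes. RefSeq (GRCm38.p6) listed 16 promoters for the 10 genes, and the 250 bases before each start were searched on both strands. The letters ACGTG, or CACGT on the other strand, the core of the hypoxia response element, were in 8 of the 16 promoters, beside 16.6% of all 32851 promoters. The E-box CACGTG, each copy of which holds 2 overlapping matches of ACGTG, was in 1 of the 16, beside 6.02%, and the GC box GGGCGG or CCGCCC was in 10 of the 16, beside 32.7%. Promoters of 1 gene overlap in Eno1 and Aldoa, so the 16 are not independent. The promoters of Ldha and Gapdh, which fell in ATRX KD, and of Hk2, which had EZH2 peaks in all 6 lists, are shown with every ACGTG or CACGT in capitals.
Ldha (chr7:46845554-46845803, plus strand): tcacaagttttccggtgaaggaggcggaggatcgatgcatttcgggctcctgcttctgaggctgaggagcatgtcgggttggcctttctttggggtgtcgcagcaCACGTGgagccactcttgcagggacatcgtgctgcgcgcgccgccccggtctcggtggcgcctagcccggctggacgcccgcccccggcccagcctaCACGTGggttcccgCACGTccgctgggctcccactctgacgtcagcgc
Gapdh (chr6:125165774-125166023, minus strand): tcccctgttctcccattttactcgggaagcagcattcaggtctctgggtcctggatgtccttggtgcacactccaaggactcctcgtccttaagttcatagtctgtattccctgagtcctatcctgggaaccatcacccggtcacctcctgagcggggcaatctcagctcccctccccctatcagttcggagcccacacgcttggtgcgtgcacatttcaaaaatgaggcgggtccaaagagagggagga
Hk2 (chr6:82774455-82774704, minus strand): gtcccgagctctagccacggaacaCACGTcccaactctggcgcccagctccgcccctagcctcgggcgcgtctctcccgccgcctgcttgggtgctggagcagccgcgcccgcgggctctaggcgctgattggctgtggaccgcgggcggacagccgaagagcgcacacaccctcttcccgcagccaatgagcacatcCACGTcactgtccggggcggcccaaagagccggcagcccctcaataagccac
The Ldha promoter shown, the first of 2 in RefSeq, had 5 matches, 4 of them within 2 CACGTG, and was the only member promoter with CACGTG. The second (chr7:46846832-46847081) had 0 matches and overlapped with no ATRX or EZH2 peak. The Gapdh promoter had 0 matches and that of Hk2 had 2. The promoter of Tpi1, which also fell in ATRX KD, had 0 matches and overlapped with an EZH2 peak in WT replicate 1 only, and is not printed because 138 of its 250 bases lie in annotated exons. This first Ldha promoter overlapped with EZH2 peaks in WT replicate 1 and ATRXΔRBR replicate 1 and with no ATRX peak. The Gapdh promoter overlapped with EZH2 peaks in both WT lists and ATRXΔRBR replicate 1, and with an ATRX peak in WT replicate 1.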

How the data were processed

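Female MEFs of 3 groups were measured by RNA-Seq (6 libraries) and CUT&RUN (16 peak lists). The 4 IgG libraries were not analysed here. Per the study's methods, the authors aligned RNA-Seq reads with STAR and made the deposited estimated counts and the deposited TPM values per gene with RSEM. They mapped CUT&RUN reads to mm10 with Bowtie2 and called broad peaks for each library with MACS2. The deposited fold enrichment (a ratio to local background) and −log10 p and q values of each peak come from the authors' MACS2 runs, and the control library is not given in the sources used here. The antibody for H3K27me3 is named differently in 2 places of the study. Sequences and positions are from GENCODE M21, RefSeq and GRCm38.

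Of the 53801 gene identifiers, 53620 were in GENCODE M21. Estimated counts were rounded, genes whose counts summed to more than 10 in a comparison's 4 libraries entered, and each group was compared with WT by edgeR 4.0.16 (quasi-likelihood test, TMM) in R 4.3.3, with Benjamini-Hochberg adjustment over all genes and a threshold of 0.05. The fit was tested on simulated data. The samples were grouped by their labels. Fold changes on the TPM scale are differences of mean log2(TPM + 1). DESeq2 1.42.0, other scalings, filters and fits were alternatives. There are 2 identifiers that carry the name Aldoa, and the one with more counts was used. The p-values measure the spread between 2 libraries. Intervals and floors cover counting error only.

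The members and lists were chosen with earlier results of these data known. Named were all members, Atrx, the genes of each other list called in a comparison (at most 6 by adjusted p), the 2 with the highest WT TPM where fewer than 2 were called, and genes that share at least 10% of a member's 50-base words and have at least 10 counts. The words of 38 bases and the test of ATRX KD against ATRXΔRBR were added after seeing the data. A further sequence is not reported here.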

Additional observations from a re-analysis of the deposited data

Results flagged for a closer look

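Adm, Ndrg1 and Pfkfb3 were called in both comparisons with opposite signs. The direct edgeR fit of ATRX KD against ATRXΔRBR, which was chosen after seeing the data, gives the size of each difference. Since the genes were picked for their opposite signs against the same WT libraries, these differences follow from that choice and are given as a description. Adm fell in ATRXΔRBR (log2 fold change of −1.28) and rose in ATRX KD (3.09), and the difference was 4.37 ± 0.22. Ndrg1, a stress-response gene, rose in ATRXΔRBR (0.91) and fell in ATRX KD (−1.36), with a difference of −2.28 ± 0.13. Pfkfb3 fell in ATRXΔRBR (−1.16) and rose in ATRX KD (0.62), with a difference of 1.76 ± 0.22. Ndrg1 was at 131 and 131 TPM in WT, 256.1 and 257 TPM in ATRXΔRBR and 61.9 and 56.9 TPM in ATRX KD, so that none of the 3 groups overlapped. Under DESeq2, and with effective lengths as an offset, the calls of Pfkfb3 were lost in each comparison and that of Adm in ATRXΔRBR. The run of the ATRX KD libraries cannot be told apart from the knockdown in these differences, nor the ATRXΔRBR clone from the deletion.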

How the results depend on the processing

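In ATRXΔRBR, 3 glycolysis genes were called without a filter on low counts and with all 6 libraries in 1 fit, and 0 at a log2 fold change of at least 1. All genes called there were 1979 without the filter, 597 with at least 10 counts in every library and 1736 with all 6 libraries. In ATRX KD, 1 glycolysis gene and 2497 genes in all had a log2 fold change of at least 1, and the median of the glycolysis genes was −0.03 on the TPM scale with either pseudocount (−0.0295 and −0.0298), where the median of all genes was 0.17 and 0.22. Leaving out 1 library gave 0 to 1 glycolysis genes, 1050 to 1523 genes and a median of −0.51 to −0.16 in ATRXΔRBR, and 3 to 8 glycolysis genes, 3194 to 8953 genes and a median of −0.40 to −0.13 in ATRX KD. A lone library was then assumed to vary like the other group.

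Signs turned for changes that had not passed. With effective lengths, Hk2 was at −0.22 in ATRXΔRBR and −0.38 in ATRX KD, and Pgam1 at −0.0070 in ATRX KD. On the TPM scale with pseudocounts of 1 and 0.1, Hk2 was at −0.14 and −0.15 in ATRXΔRBR, and in ATRX KD Hk2 was at −0.11 and −0.11, Eno1 at 0.15 and 0.15 and Aldoa at 0.061 and 0.061. Leaving out 1 library gave, in ATRXΔRBR, −0.52 to 0.084 for Eno1, −0.66 to 0.22 for Pgam1 and −0.24 to 0.14 for Slc2a1. In ATRX KD it gave −0.40 to 0.18 for Eno1, −0.37 to 0.012 for Aldoa and −0.36 to 0.53 for Pgam1, and of these Pgam1 passed without WT replicate 1 (−0.36) and, with the other sign, without WT replicate 2 (0.53).

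With the replicate number as a block, 1068 genes and 1 glycolysis gene were called in ATRXΔRBR and 5796 genes and 3 glycolysis genes in ATRX KD. The numbers are not stated to mark a shared preparation, and deviations of replicate 1 from the group means correlated at −0.533 (WT and ATRXΔRBR) and −0.0692 (WT and ATRX KD) across genes. Among the genes named above, the block ended the calls of Pfkm, Pfkfb3 and Pdk3 in ATRXΔRBR. In ATRX KD it ended those of Pfkfb3, Taldo1 and Vhl.

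Of the peaks at start sites in both replicates, at a q of 0.01 or less ATRX in WT went from 1 gene to 0 and EZH2 in ATRXΔRBR from 7 to 4. Single lists gave 3 and 3 genes for ATRX in WT, 1 and 2 for ATRX in ATRXΔRBR and 2 and 4 for EZH2 in ATRX KD, where both replicates gave 1, 0 and 1. The count of 0 for H3K27me3 held under every window and threshold tried. The causes were not tested.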
